A study of Mus musculus with 8 samples.

Results

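Icos, Cd28, Cd27, Tnfrsf4 (OX40), Tnfrsf9 (4-1BB) and Tnfrsf18 (GITR) encode receptors through which T cells receive costimulation. All 6 were found by symbol, each on 1 line, among the 32285 genes listed in the deposited matrices. Their levels are described across 4 classes of leukocyte in each of 4 single-cell libraries. The mice were of 2 kinds, SS and control, with 4 animals of each kind at about 12 weeks of age. The labels leave the letters SS unexplained. Leukocytes came from the submandibular gland, which secretes saliva, and from its draining lymph nodes, and were sorted on the antigen CD45 with an antibody to its CD45.2 form. Gland tissue was dissociated with collagenase and node tissue by trituration alone, so tissue and dissociation go together. The labels give 1 expression library and 1 T cell receptor library for each combination of kind and tissue, without replicates, and the receptor libraries were not analysed here.

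The expression matrices are named C1 to C4, and nothing in the labels or headers ties these names to SS or control mice or to gland or node. The 4 libraries are therefore set side by side, and no difference between kinds of mice or between tissues is drawn. Values in parentheses after a level, ratio or share bound its 95% interval of counting error. They leave out the spread between animals, and no test between libraries was possible.

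A T cell that meets its antigen needs a second signal to respond fully, and costimulatory receptors supply it. CD28 and ICOS belong to the immunoglobulin superfamily, bind B7-family ligands on antigen-presenting cells and signal through phosphoinositide 3-kinase. CD27, OX40, 4-1BB and GITR belong to the tumour necrosis factor (TNF) receptor superfamily, bind ligands of the TNF family and recruit TRAF adaptors that activate NF-kB. CD28 and CD27 are present on resting T cells, whereas ICOS, OX40 and 4-1BB are mainly induced by activation. Regulatory T cells, defined by the transcription factor FOXP3, are known to carry much OX40 and GITR.

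A UMI, a unique molecular identifier, marks 1 captured RNA molecule. With the barcode limits of 500 UMIs, 300 genes and 10% mitochondrial UMIs, 5616, 5067, 8532 and 5957 barcodes remained of C1 to C4, whose totals ran from 37902916 to 77819179 UMIs. T-like barcodes were divided by their own UMIs into Foxp3 T (at least 1 Foxp3 UMI and none of Cd8a or Cd8b1), Cd4-only T and Cd8-only T (neither with a Foxp3 UMI). NK barcodes came from an NK-like cluster and held no Cd3 UMI. Foxp3 T barcodes numbered 8 for C1, too few for a level, 60 for C2, 76 for C3 and 194 for C4. The other classes held, for C1 to C4 in turn, 264, 686, 1227, 1522 Cd4-only T, 195, 2190, 5417, 1090 Cd8-only T and 967, 238, 19, 21 NK barcodes. Cd3e, which encodes a subunit of the T cell receptor complex, stood at 708 to 1865 UMIs per 1000000 over the T cell classes, and Ncr1, which encodes an NK receptor, at 609 to 1384 over NK barcodes. The same class was filled by different clusters: 80.0% of the Cd8-only barcodes of C1 lay in cluster 8, 56.4% of those of C2 in cluster 6, 48.7% of those of C3 in cluster 1 and 68.3% of those of C4 in cluster 0. A list of 6 genes of salivary secretion summed to 5613 to 13150 UMIs per 1000000 over these classes of C1 and C2 and to at most 1.49 over those of C3 and C4. In the 4 classes the macrophage markers summed to at most 65.3 and the B cell markers to at most 55.0 UMIs per 1000000. The part of these RNAs in the results was not tested. Each pair of libraries shared 31 to 85 kept barcode sequences, at most 1.43% of either.

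Levels below are UMIs of a gene per 1000000 UMIs of a class, written CPM, so that fewer expressing cells and less RNA per cell cannot be told apart in them. As a gauge of free RNA and mixed droplets, they are set beside macrophage-like barcodes (C1, C2) or B-like barcodes (C3, C4), which should lack most of these receptors.

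**Figure D1:**
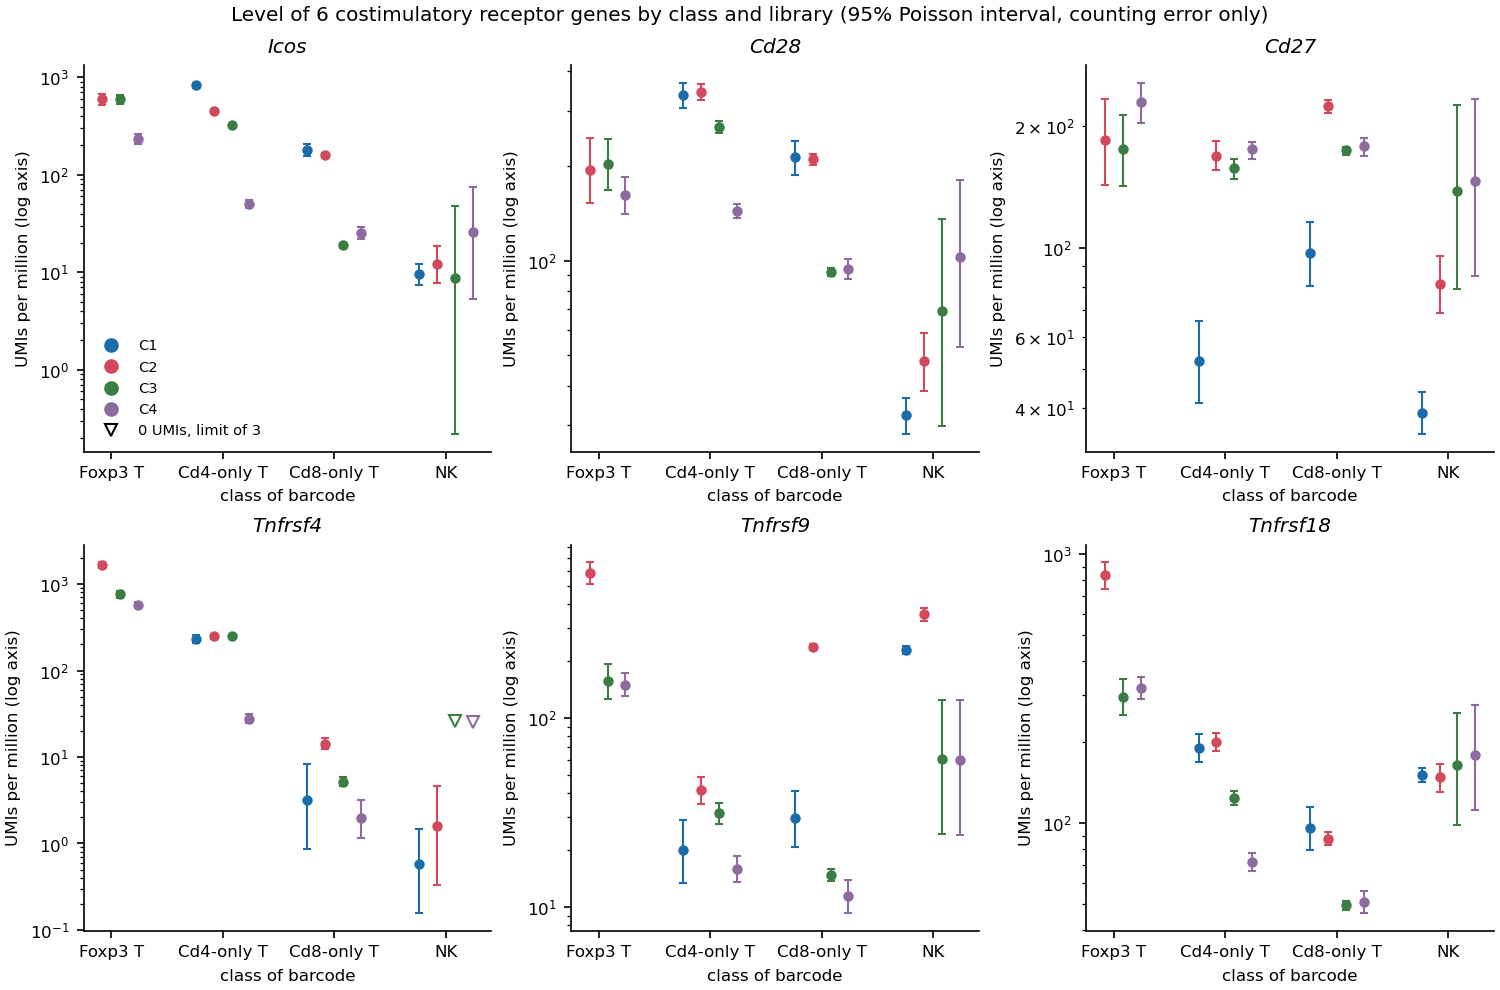
Each panel plots 1 gene; the x axis gives the class and the log y axis UMIs per 1000000, with colours for libraries C1 to C4, bars for 95% Poisson intervals and open triangles for the limit that 0 UMIs allow. Tnfrsf4 and Tnfrsf18 step down from Foxp3 T over Cd4-only T to Cd8-only T barcodes of C2, C3 and C4, Cd27 stays between 157 and 229 CPM over those classes, and Tnfrsf9 is also present in NK barcodes.

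Icos, which encodes the inducible costimulator of follicular helper and many effector T cells, lies on chromosome 1 from 60960773 to 61000322 (mm10), 187414 bases from Cd28. Foxp3 T barcodes held 594 (518 to 679) for C2, 597 (535 to 664) for C3 and 234 (209 to 261) for C4, all in CPM. Cd4-only T barcodes held 830 (783 to 879) for C1, 451 (429 to 474) for C2, 323 (311 to 336) for C3 and 49.9 (45.5 to 54.6) for C4. The libraries were thus in the order C1, C2, C3, C4 in the Cd4-only class, with no interval overlapping its neighbour. Cd8-only T barcodes held 180 (157 to 205) for C1, 161 (154 to 168) for C2, 18.9 (17.8 to 20.2) for C3 and 25.4 (22.2 to 29.0) for C4. Both C1 and C2 lay above C3 and C4 there, and C1 and C2 overlapped. NK barcodes held 9.58 (7.42 to 12.2) for C1 and 12.3 (7.78 to 18.4) for C2, below the 16.4 and 26.7 CPM of macrophage-like barcodes, and this level is read as background. Under the stricter naming of clusters described below, the Cd8-only level of C3 was 52.3.

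Cd28, which encodes the receptor of the classical second signal, lies on chromosome 1 from 60746388 to 60773359. Foxp3 T barcodes held 195 (153 to 246) for C2, 203 (168 to 244) for C3 and 162 (141 to 185) for C4, and neighbours in that order overlapped. Cd4-only T barcodes held 337 (307 to 368) for C1, 344 (325 to 364) for C2, 266 (255 to 278) for C3 and 144 (137 to 152) for C4, so that C4 had the lowest level. Cd8-only T barcodes held 213 (188 to 240) for C1, 210 (202 to 218) for C2, 92.3 (89.7 to 95) for C3 and 93.8 (87.4 to 101) for C4. In that class the libraries fell into the pairs C1 with C2 and C3 with C4, each overlapping within itself. NK barcodes held 32.2 (28.1 to 36.7) for C1 and 48.1 (38.6 to 59.1) for C2, against 10.1 and 25.8 CPM in macrophage-like barcodes. Free RNA, summed over barcodes of at least 50 and under 200 UMIs, held 7.45 (5.43 to 9.97) for C1 and 43.2 (38.8 to 48.0) for C2. The NK level of C2 overlapped that of its free RNA, so only C1 was above both.

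Cd27 encodes a receptor that sustains the survival of activated T cells and marks subsets of NK cells, and lies on chromosome 6 from 125232620 to 125237136. Foxp3 T barcodes held 185 (143 to 234) for C2, 175 (142 to 213) for C3 and 229 (204 to 256) for C4. Cd4-only T barcodes held 52.4 (41.1 to 65.9) for C1, 169 (156 to 184) for C2, 157 (148 to 166) for C3 and 175 (166 to 183) for C4. Cd8-only T barcodes held 96.9 (80.4 to 116) for C1, 224 (216 to 232) for C2, 174 (170 to 177) for C3 and 178 (169 to 187) for C4. C1 was the lowest library in both of the last classes, below the intervals of the other 3, whereas for Icos it had been the highest. NK barcodes held 39.0 (34.5 to 43.9) for C1, 81.2 (68.8 to 95.1) for C2, 138 (79.1 to 225) for C3 and 146 (85.0 to 234) for C4, and C1 was again the lowest.

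Tnfrsf4, Tnfrsf18 and Tnfrsf9 all lie on chromosome 4, Tnfrsf4 from 156013595 to 156016613, Tnfrsf18 from 156026322 to 156028894, 9709 bases further on, and Tnfrsf9 from 150920155 to 150946104. These 3 genes were at least 2-fold above Cd4-only T barcodes in the Foxp3 T barcodes of C2, C3 and C4, so the bases just before each annotated gene start are shown. They come from RefSeq for GRCm38.p6 (mm10), plus strand, 5′ to 3′, at chr4:156013445-156013594 for Tnfrsf4, chr4:150919905-150920154 for Tnfrsf9 and chr4:156026072-156026321 for Tnfrsf18.
Tnfrsf4: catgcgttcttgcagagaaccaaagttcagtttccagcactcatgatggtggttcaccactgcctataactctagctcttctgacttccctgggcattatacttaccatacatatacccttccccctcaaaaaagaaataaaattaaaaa
Tnfrsf9: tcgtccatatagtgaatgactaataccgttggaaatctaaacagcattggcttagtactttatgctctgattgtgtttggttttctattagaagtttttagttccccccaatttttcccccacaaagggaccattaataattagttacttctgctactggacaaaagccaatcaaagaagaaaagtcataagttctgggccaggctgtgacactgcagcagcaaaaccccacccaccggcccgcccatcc
Tnfrsf18: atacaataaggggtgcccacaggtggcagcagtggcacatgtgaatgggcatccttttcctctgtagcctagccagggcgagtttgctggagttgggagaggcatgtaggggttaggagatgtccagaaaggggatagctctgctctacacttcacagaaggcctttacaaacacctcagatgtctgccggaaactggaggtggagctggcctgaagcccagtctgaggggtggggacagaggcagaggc
Both strands were searched for an NF-kB type string (GGG, any 5 bases, then CC) and for an AP-1 type string (TGA, any base, then TCA), to be printed in capitals. None of the 3 windows holds either. Among 32851 RefSeq windows, 27.6% hold the NF-kB type string and 4.00% the AP-1 type string in 150 bases, the length shown for Tnfrsf4, and 45.8% and 6.75% in the 250 bases shown for the other genes. These letters are not in these windows, and nothing follows from that about either factor.

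Tnfrsf4 encodes OX40, which prolongs the response of activated CD4 T cells. Foxp3 T barcodes held 1658 (1529 to 1795) for C2, 765 (695 to 841) for C3 and 571 (532 to 613) for C4. Cd4-only T barcodes held 233 (208 to 259) for C1, 249 (233 to 266) for C2, 248 (238 to 260) for C3 and 27.8 (24.6 to 31.4) for C4. C1, C2 and C3 overlapped there and C4 lay well below them; C2 was at 163 when clustered alone. Cd8-only T barcodes held 3.20 (0.873 to 8.20) for C1, 14.3 (12.4 to 16.5) for C2, 5.17 (4.56 to 5.83) for C3 and 1.98 (1.16 to 3.18) for C4. Macrophage-like barcodes held 5.88 for C1 and 37.3 for C2, and B-like barcodes 7.11 for C3 and 4.24 for C4. Tnfrsf4 in the Cd8-only class as a whole was therefore below this gauge in each library. The exception was C3 under the stricter naming of clusters, at 25.8. The macrophage-like UMIs of C2 came from 25 of 376 barcodes. Free RNA held 2.15 (1.15 to 3.68) for C1, 4.51 (3.17 to 6.21) for C2, 19.4 (7.12 to 42.2) for C3 and 0 UMIs for C4. The Cd8-only level of C2 was above that of its free RNA, and those of C1 and C3 were not. Whether the Cd8-only levels are background was not tested. NK barcodes held 4 UMIs of Tnfrsf4 for C1, 3 for C2 and 0 for C3 and C4, where 0 UMIs allow up to 25.9 and 25.7 CPM.

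Tnfrsf9 encodes 4-1BB, which activation induces on CD8 T cells and NK cells. Foxp3 T barcodes held 584 (508 to 667) for C2, 157 (126 to 193) for C3 and 150 (130 to 172) for C4. With C2 clustered alone, 40 of its 60 Foxp3 T barcodes fell in a cluster of 105 barcodes that stayed unnamed and whose leading genes include Foxp3, Ccr8 and Tnfrsf4. The 21 Foxp3 T barcodes that C2 then had held 90.0 CPM of Tnfrsf9, 983 of Tnfrsf4 and 319 of Tnfrsf18. The high C2 values of Tnfrsf9 and Tnfrsf18 thus rest largely on the barcodes of that cluster. Tnfrsf4 was lower without them too, but stayed above the 765 of C3 and the 571 of C4. Cd4-only T barcodes held 20.1 (13.4 to 29.0) for C1, 41.6 (35.2 to 49.0) for C2, 31.4 (27.6 to 35.6) for C3 and 16.0 (13.5 to 18.7) for C4. Cd8-only T barcodes held 29.6 (20.9 to 40.9) for C1, 238 (230 to 246) for C2, 14.8 (13.7 to 15.9) for C3 and 11.4 (9.28 to 13.9) for C4. C2 thus stood apart from the other 3 libraries in the Cd8-only class, where C3 was at 37.6 under the stricter naming and C1 at 49.2 when clustered alone. NK barcodes held 230 (219 to 241) for C1, 353 (327 to 381) for C2, 60.5 (24.3 to 125) for C3 and 60.1 (24.2 to 124) for C4. Macrophage-like barcodes held 1.23 for C1 and 24.2 for C2, well below NK barcodes.

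Tnfrsf18 encodes GITR, a receptor of regulatory and activated T cells. Foxp3 T barcodes held 836 (745 to 935) for C2, 295 (252 to 343) for C3 and 319 (289 to 350) for C4. Cd4-only T barcodes held 191 (169 to 215) for C1, 201 (186 to 216) for C2, 124 (117 to 132) for C3 and 71.9 (66.5 to 77.5) for C4. Cd8-only T barcodes held 96.1 (79.7 to 115) for C1, 87.7 (82.8 to 92.9) for C2, 49.5 (47.5 to 51.4) for C3 and 51.0 (46.3 to 56.0) for C4. C1 and C2 overlapped and lay above C3 and C4 in the Cd4-only class, and the same held in the Cd8-only class. NK barcodes held 151 (142 to 160) for C1, 148 (131 to 166) for C2, 164 (98.9 to 257) for C3 and 180 (112 to 276) for C4, and all 4 intervals overlapped.

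Foxp3 T barcodes were first compared with Cd4-only T barcodes of the same library. A cell whose Foxp3 RNA was not captured counts as Cd4-only T where it holds a Cd4 UMI. For C4, cluster 7 held 135 of the 194 Foxp3 T barcodes and 132 (8.67%) of the Cd4-only ones. The part of such cells in the Cd4-only levels, ratios and divisions was not tested. At least 2-fold higher in Foxp3 T were, of the 6 genes, 3 for C2 (9.45%), 3 for C3 (7.93%) and 4 for C4 (10.6%), where the percentages give the share of all genes with at least 10 UMIs over both classes that were as much higher. None of the 6 was at least 2-fold lower, as were 6.85%, 5.83% and 4.30% of genes for C2, C3 and C4. Tnfrsf4, Tnfrsf9 and Tnfrsf18 made up the 3, and Icos joined them for C4.

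The Tnfrsf4 ratio was 6.65 (5.99 to 7.38) for C2, 3.08 (2.77 to 3.42) for C3 and 20.5 (17.8 to 23.7) for C4. Its denominators in Cd4-only T barcodes were 249, 248 and 27.8 CPM, and the C3 ratio was 4.70 from means over barcodes. The Tnfrsf9 ratio was 14.0 (11.3 to 17.4) for C2, 5.0 (3.88 to 6.40) for C3 and 9.41 (7.58 to 11.7) for C4, and 3.20 for C2 clustered alone. The Tnfrsf18 ratio was 4.17 (3.63 to 4.77) for C2, 2.38 (2.00 to 2.80) for C3 and 4.44 (3.92 to 5.02) for C4, and 1.82, under the 2-fold mark, for C2 clustered alone. The 3 TNF receptor genes on chromosome 4 were thus higher in Foxp3 T barcodes of each library that had them. The Icos ratio was 1.32 (1.14 to 1.52) for C2, 1.85 (1.64 to 2.07) for C3 and 4.69 (4.05 to 5.42) for C4. The Cd28 ratio was 0.568 (0.441 to 0.720) for C2, 0.764 (0.627 to 0.922) for C3 and 1.12 (0.967 to 1.29) for C4. The Cd27 ratio was 1.09 (0.835 to 1.40) for C2, 1.12 (0.901 to 1.37) for C3 and 1.31 (1.16 to 1.48) for C4. Cd28 and Cd27, the receptors of resting T cells, therefore stayed under 2-fold in both directions. Over the 6 genes the median log2 ratio was 1.23 for C2, 1.07 for C3 and 2.19 for C4, beside 0.06, 0.04 and 0.14 over all genes tested.

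**Figure D2:**
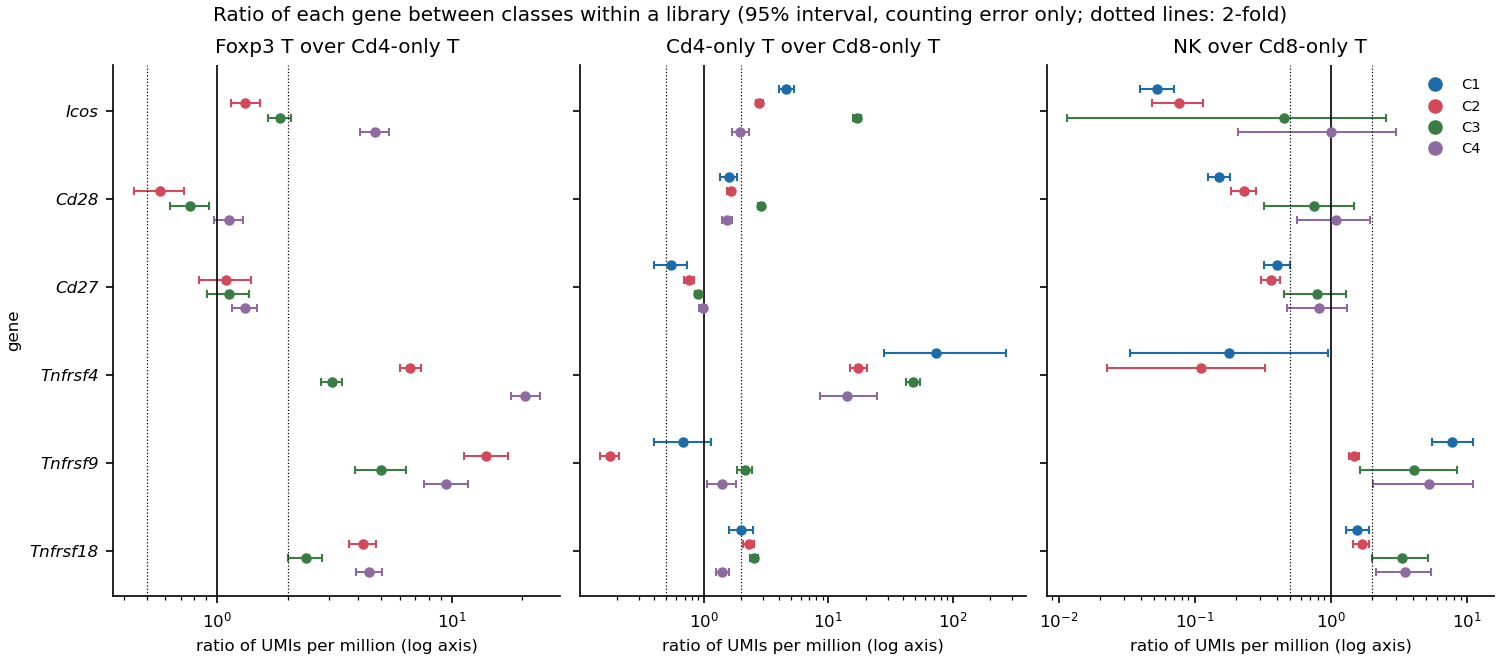
Each panel plots 1 comparison of classes; the log x axis gives the ratio of UMIs per 1000000 within a library and the y axis the 6 genes, with colours for C1 to C4, bars for 95% intervals, a solid line at equal levels and dotted lines at 2-fold. Tnfrsf4, Tnfrsf9 and Tnfrsf18 lie beyond 2-fold in Foxp3 T barcodes of C2 to C4, and Tnfrsf4 lies at 14.0 or more in Cd4-only over Cd8-only T barcodes of all 4 libraries.

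The Cd4-only class served again in a comparison with Cd8-only T barcodes, so the ratios of both comparisons share its values. At least 2-fold higher in Cd4-only were 2 for C1 (8.97%), 3 for C2 (6.68%), 5 for C3 (18.2%) and 1 for C4 (5.51%) of the 6 genes. At least 2-fold lower were 0 for C1 (4.17%), 1 for C2 (5.02%), 0 for C3 (6.29%) and 0 for C4 (5.27%), the 1 gene being Tnfrsf9. Tnfrsf4 was the gene higher in all 4 libraries, with ratios of 72.6 (28.1 to 268) for C1, 17.4 (14.8 to 20.4) for C2, 48.1 (42.2 to 54.9) for C3 and 14.0 (8.60 to 24.5) for C4. Its Cd8-only denominators were below the gauge given above, and that of C1 rests on 4 UMIs, so the size of these ratios is uncertain. The C2 ratio was 10.7 when clustered alone and the C3 ratio 9.63 under the stricter naming. The Icos ratio was 4.60 (3.99 to 5.33) for C1, 2.80 (2.62 to 2.99) for C2, 17.1 (15.9 to 18.4) for C3 and 1.96 (1.67 to 2.32) for C4, with 6.19 for C3 under the stricter naming. Both genes were thus on the Cd4-only side throughout. The Cd28 ratio was 1.58 (1.36 to 1.84) for C1, 1.64 (1.53 to 1.76) for C2, 2.88 (2.74 to 3.04) for C3 and 1.54 (1.41 to 1.68) for C4. The Cd27 ratio was 0.541 (0.399 to 0.729) for C1, 0.757 (0.692 to 0.827) for C2, 0.902 (0.849 to 0.957) for C3 and 0.982 (0.915 to 1.05) for C4. Cd27 was the gene with no ratio above 1. The Tnfrsf9 ratio was 0.678 (0.400 to 1.14) for C1, 0.175 (0.147 to 0.207) for C2, 2.13 (1.84 to 2.46) for C3 and 1.40 (1.07 to 1.82) for C4. Its direction differed between libraries, and the C3 ratio turned to 0.836 under the stricter naming, which leaves clusters 1 and 4 out of the T-like class. The Tnfrsf18 ratio was 1.99 (1.59 to 2.48) for C1, 2.29 (2.08 to 2.51) for C2, 2.51 (2.33 to 2.7) for C3 and 1.41 (1.25 to 1.59) for C4.

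NK barcodes were compared with the same Cd8-only T barcodes, the other cytotoxic class. At least 2-fold higher in NK were 1 for C1 (12.5%), 0 for C2 (10.2%), 2 for C3 (17.8%) and 2 for C4 (20.3%) of the genes with enough UMIs, 5 of the 6 for C1. At least 2-fold lower were 3 for C1 (6.84%), 4 for C2 (10.3%), 1 for C3 (4.92%) and 0 for C4 (6.17%). The 4 of C2 include Tnfrsf4, at a ratio of 0.112 (0.0228 to 0.331). That ratio rests on 3 NK UMIs and on a Cd8-only level below the gauge given above. The values of C3 and C4 rest on 19 and 21 NK barcodes, and the lower gene of C3, Icos, on 1 UMI. The Tnfrsf9 ratio was 7.76 (5.60 to 11.1) for C1, 1.48 (1.36 to 1.61) for C2, 4.10 (1.64 to 8.50) for C3 and 5.25 (2.06 to 11.2) for C4. NK barcodes were thus above Cd8-only T barcodes for Tnfrsf9 in each library, least so for C2, where the Cd8-only class held the most of it. The C1 ratio was 4.90 when clustered alone and 5.03 from means over barcodes, and the C3 ratio 1.61 under the stricter naming. The Tnfrsf18 ratio was 1.57 (1.30 to 1.91) for C1, 1.69 (1.47 to 1.92) for C2, 3.32 (2.00 to 5.20) for C3 and 3.54 (2.17 to 5.47) for C4. Icos in NK barcodes of C1 and C2 was read as background, so the size of the measured 18.8-fold and 13.1-fold lower levels there is uncertain. Cd28 was 6.62-fold and 4.37-fold lower, and Cd27 2.48-fold and 2.75-fold lower. The NK level of Cd28 for C2 overlapped that of its free RNA, so the size of that fold is uncertain too. With Cd3-bearing barcodes of the NK-like cluster kept, the Icos ratio of C2 went from 0.0762 to 0.179 and its Tnfrsf4 ratio from 0.112 to 0.442.

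Pdcd1 encodes PD-1, an inhibitory receptor of the CD28 family that activated and chronically stimulated T cells carry. The share of Cd8-only T barcodes with a Pdcd1 UMI was 26.2% for C1, 74.6% for C2, 4.06% for C3 and 1.47% for C4, the last being 16 barcodes. Median UMIs with and without it were 6399 and 6300 for C1, 5170.5 and 5031 for C2, 6563 and 8971 for C3 and 10644 and 7328.5 for C4. At least 2-fold higher in barcodes with a Pdcd1 UMI were 0 for C1 (5.0%), 2 for C2 (8.75%), 3 for C3 (15.1%) and 4 for C4 (12.0%) of the genes with enough UMIs, 5 of the 6 for C1.

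Tnfrsf9 and Tnfrsf4 were higher with a Pdcd1 UMI in C2, C3 and C4. Tnfrsf9 stood at 288 and 57.3 CPM with and without the UMI for C2, 71.9 and 12.2 for C3, 52.4 and 10.6 for C4 and 40.6 and 25.9 for C1. The ratio was 1.57 (0.735 to 3.21) for C1, 5.03 (4.30 to 5.92) for C2, 5.90 (4.92 to 7.05) for C3 and 4.94 (2.19 to 9.81) for C4. The intervals of C2, C3 and C4 overlapped although the levels differed, and that of C1 included 1. Under the stricter naming the C3 ratio was 2.93 and the C4 ratio 7.97. Tnfrsf4 stood at 17.5 and 3.13 for C2, 62.3 and 2.60 for C3 and 23.3 and 1.55 for C4, the last from 4 and 13 UMIs. With Pdcd1, C3 and C4 were above the B-like gauge of their library, and C2 was below its macrophage-like one. The C3 ratio of Tnfrsf4 was 24.0 (18.7 to 30.8), and 5.18 under the stricter naming. The Icos ratio was 0.872 (0.627 to 1.20) for C1, 1.08 (0.972 to 1.20) for C2, 5.59 (4.75 to 6.55) for C3 and 3.87 (2.17 to 6.44) for C4, and that of C3 2.32 under the stricter naming. The Cd28 ratio was 1.27 (0.966 to 1.66) for C1, 0.748 (0.688 to 0.815) for C2, 1.95 (1.75 to 2.16) for C3 and 2.49 (1.76 to 3.44) for C4. The Cd27 ratio was 0.957 for C1, 1.16 for C2, 1.21 for C3 and 1.35 for C4, so this gene differed little with Pdcd1.

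**Figure D3:**
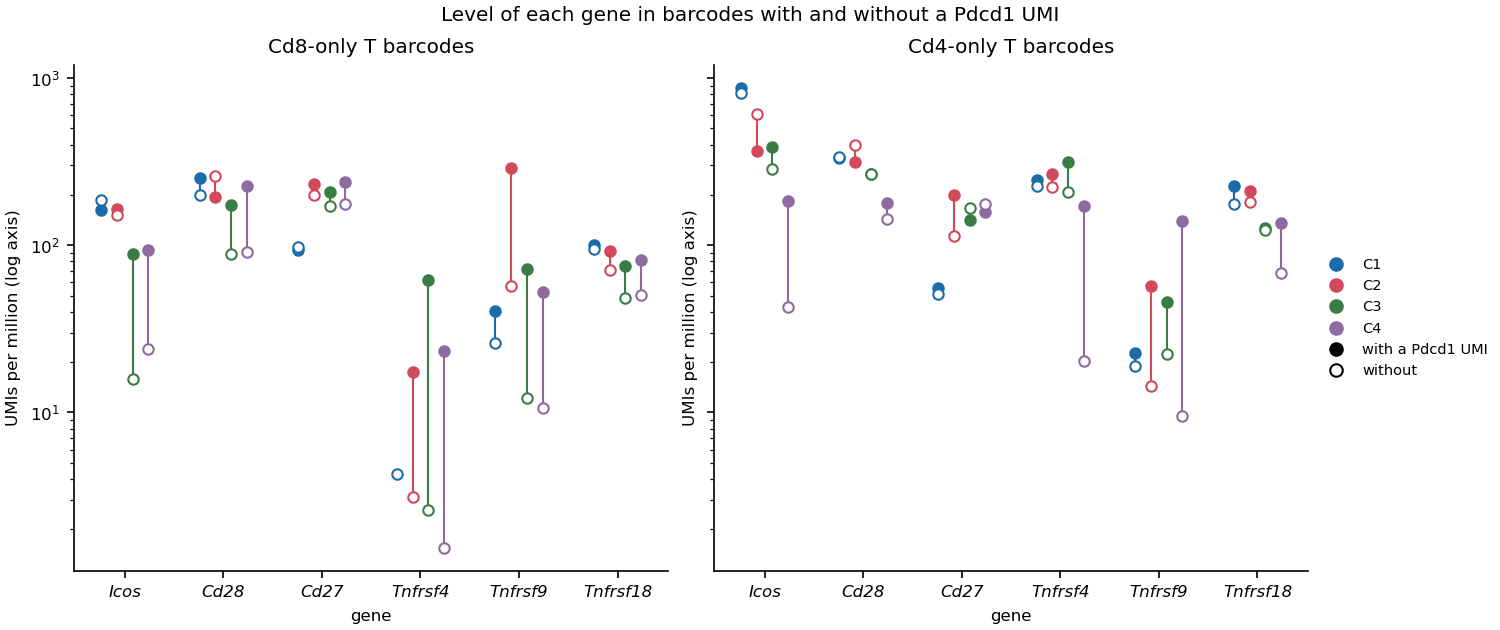
The x axis gives the 6 genes and the log y axis UMIs per 1000000 in Cd8-only (left) and Cd4-only (right) T barcodes; filled points are barcodes with a Pdcd1 UMI, open points those without, lines join the points of a library, and colours mark C1 to C4. In Cd8-only barcodes Tnfrsf9 is 4.94 to 5.90 times as high with Pdcd1 for C2, C3 and C4, and the Cd27 points lie close together; Tnfrsf4 had 0 UMIs with Pdcd1 for C1 and has no filled point there.

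Cd4-only T barcodes were divided the same way, a division added after values were seen, with shares of barcodes with a Pdcd1 UMI of 27.7% for C1, 59.8% for C2, 27.9% for C3 and 2.89% for C4, the last being 44 barcodes. At least 2-fold higher with the UMI were 0 for C1 (4.43%), 1 for C2 (7.89%), 1 for C3 (6.19%) and 3 for C4 (14.5%) of the 6 genes. None was at least 2-fold lower, as were 6.04%, 3.87%, 3.65% and 6.57% of all genes tested. The Tnfrsf9 ratio was 1.20 (0.477 to 2.78) for C1, 3.96 (2.41 to 6.90) for C2, 2.03 (1.57 to 2.63) for C3 and 14.5 (10.3 to 20.3) for C4. The Icos ratio was 1.07 (0.937 to 1.21) for C1, 0.60 (0.543 to 0.663) for C2, 1.34 (1.24 to 1.45) for C3 and 4.31 (3.36 to 5.46) for C4. Tnfrsf9 was thus higher with Pdcd1 for C2, C3 and C4, whereas the direction for Icos was not the same in all libraries. The Tnfrsf4 ratio was 1.08 (0.842 to 1.37) for C1, 1.19 (1.03 to 1.38) for C2, 1.52 (1.39 to 1.66) for C3 and 8.43 (6.38 to 11.0) for C4, with C4 apart from the rest. Cd28, Cd27 and Tnfrsf18 stayed under 2-fold in each library. Their furthest ratios were 1.97 (1.49 to 2.55) for Tnfrsf18 of C4 and 1.76 (1.45 to 2.14) for Cd27 of C2.

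Ccr7 encodes the chemokine receptor that brings naive and central memory T cells into lymph nodes, and the division by it was also added after values were seen. The share of Cd4-only T barcodes with a Ccr7 UMI was 11.0% for C1, 7.29% for C2, 46.1% for C3 and 87.4% for C4, and that of Cd8-only ones 11.8% for C1, 1.92% for C2, 67.7% for C3 and 84.8% for C4. At least 2-fold higher in Cd4-only T barcodes with Ccr7 were 1 for C1 (5.44%), 1 for C2 (7.11%), 0 for C3 (2.72%) and 0 for C4 (3.11%) of the 6 genes, and at least 2-fold lower 0 for C1 (16.4%), 1 for C2 (9.78%), 1 for C3 (4.17%) and 3 for C4 (7.09%), with the share of all genes tested in parentheses. In those of C4, Icos stood at 37.7 and 151 CPM with and without Ccr7, a ratio of 0.249 (0.205 to 0.305). Tnfrsf4 stood at 22.8 and 69.6, a ratio of 0.328 (0.248 to 0.437). Tnfrsf9 stood at 12.1 and 47.7, a ratio of 0.254 (0.178 to 0.366). These were the 3 lower genes of C4, and the other libraries did not repeat them as a set. The Icos ratio was 0.528 (0.414 to 0.666) for C1, 1.26 (1.06 to 1.48) for C2 and 0.947 (0.876 to 1.02) for C3. The Tnfrsf4 ratio was 0.646 (0.415 to 0.965) for C1, 2.45 (2.06 to 2.92) for C2 and 0.930 (0.850 to 1.02) for C3, above 2 in C2. The Tnfrsf9 ratio was 0.888 (0.172 to 2.91) for C1, 1.34 (0.743 to 2.26) for C2 and 0.324 (0.238 to 0.435) for C3, with 3 UMIs behind the level with Ccr7 of C1. None of these 3 genes lay on 1 side of equal levels, beyond its interval, in all 4 libraries. The Cd27 ratio was 2.79 (1.58 to 4.75) for C1, 0.418 (0.260 to 0.639) for C2, 0.854 (0.762 to 0.956) for C3 and 0.879 (0.757 to 1.03) for C4, past 2-fold in opposite directions for C1 and C2, from 20 and 22 UMIs with Ccr7. The Cd28 ratio was 1.13 (0.849 to 1.48) for C1, 1.46 (1.22 to 1.74) for C2, 0.911 (0.836 to 0.993) for C3 and 0.815 (0.695 to 0.961) for C4. The Tnfrsf18 ratio was 0.569 (0.337 to 0.908) for C1, 0.959 (0.718 to 1.26) for C2, 0.961 (0.847 to 1.09) for C3 and 0.629 (0.511 to 0.781) for C4. Both stayed under 2-fold in each library.

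In Cd8-only T barcodes divided by Ccr7, at least 2-fold higher were 0 for C1 (6.32%), 0 for C2 (8.31%), 0 for C3 (2.15%) and 0 for C4 (4.33%) of the genes with enough UMIs, 5 of the 6 for C1, and at least 2-fold lower 0 for C1 (17.1%), 1 for C2 (8.07%), 2 for C3 (3.90%) and 0 for C4 (3.18%). The lower genes were Tnfrsf9 for C2 and C3 and Tnfrsf4 for C3. The Tnfrsf9 ratio was 1.06 (0.323 to 2.75) for C1, 0.351 (0.235 to 0.505) for C2, 0.424 (0.366 to 0.491) for C3 and 1.79 (0.871 to 4.27) for C4, and the intervals of C1 and C4 included 1. The Tnfrsf4 ratio of C3 was 0.421 (0.328 to 0.542), from levels of 3.75 and 8.91 CPM near the B-like gauge. The Icos ratio was 1.94 (1.39 to 2.67) for C1, 1.51 (1.19 to 1.88) for C2, 0.588 (0.516 to 0.671) for C3 and 0.708 (0.50 to 1.02) for C4, above 1 for C1 and C2 and below it for C3. Ratios of Cd28, Cd27 and Tnfrsf18 lay between 0.811 and 1.51.

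The T-like clusters, drawn without the 6 genes among the variable genes, are described here with no test since they were drawn from the same barcodes. Cluster 13 of C2, with 441 barcodes and led by Glp1r, Nrn1 and Lag3, held 663 (636 to 691) CPM of Tnfrsf9. Cluster 6 of C2, led by Adgrg1 and Gzmk, held 63.3 (58.0 to 68.9). The Cd8-only level of 238 for C2 thus averages unlike clusters, 18.9% of that class lying in cluster 13. Cluster 7, led by Tiam1 and Izumo1r, held 348 of Tnfrsf4 for C3 and 401 for C4, and cluster 0, led by Igfbp4 and Ly6c1, 11.3 and 11.0. For Icos cluster 7 held 408 and 211, and cluster 0 31.9 and 27.2. Cluster 7 held 63.8% of the Cd4-only T barcodes of C3 and 8.67% of those of C4, and cluster 0 held 12.1% and 87.6%. Most Cd4-only T barcodes of these libraries thus lay in different clusters. These are shares of barcodes, and the part of each cluster in the Cd4-only levels was not measured. For Cd27 the 2 clusters were closer, with 149 and 229 in cluster 7 and 203 and 180 in cluster 0.

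Shares of barcodes with a UMI were taken after thinning each barcode to 3681 UMIs, the depth at percentile 10 of the 4 classes. The share of Foxp3 T barcodes with Tnfrsf4 was 97.6% (87.1 to 99.9%) for C2, 54.9% (40.3 to 68.9%) for C3 and 55.6% (47.6 to 63.5%) for C4. Before thinning these shares were 96.7%, 69.7% and 66.0%. The share of Cd4-only T barcodes with Tnfrsf4 was 38.9% (32.5 to 45.5%) for C1, 33.1% (29.0 to 37.3%) for C2, 33.6% (30.7 to 36.7%) for C3 and 5.35% (4.22 to 6.67%) for C4, and before thinning 48.1%, 34.8%, 39.1% and 7.56%. Macrophage-like barcodes gave 0.848% for C1 and 3.02% for C2, and B-like barcodes 1.97% for C3 and 0.888% for C4. A Tnfrsf4 UMI was thus found in a minority of Cd4-only T barcodes of each library and in nearly all Foxp3 T barcodes of C2. For Icos the share of Cd4-only T barcodes was 80.8% (75.1 to 85.7%) for C1, 62.4% (58.1 to 66.6%) for C2, 51.2% (48.0 to 54.5%) for C3 and 11.0% (9.38 to 12.7%) for C4, and before thinning 81.8%, 66.5%, 56.0% and 17.7%. Tnfrsf9 was found in 47.2% (43.9 to 50.5%) of NK barcodes for C1 and 56.7% (49.9 to 63.3%) for C2, and before thinning in 62.9% and 76.9%. The share of Cd8-only T barcodes with Tnfrsf9 was 6.56% (3.43 to 11.2%) for C1, 27.2% (25.1 to 29.3%) for C2, 3.25% (2.78 to 3.76%) for C3 and 1.91% (1.17 to 2.93%) for C4, and before thinning 10.8%, 30.5%, 7.49% and 3.76%. The order of the libraries in these shares was that of the levels for Icos, with C1 highest and C4 lowest.

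**Figure D4:**
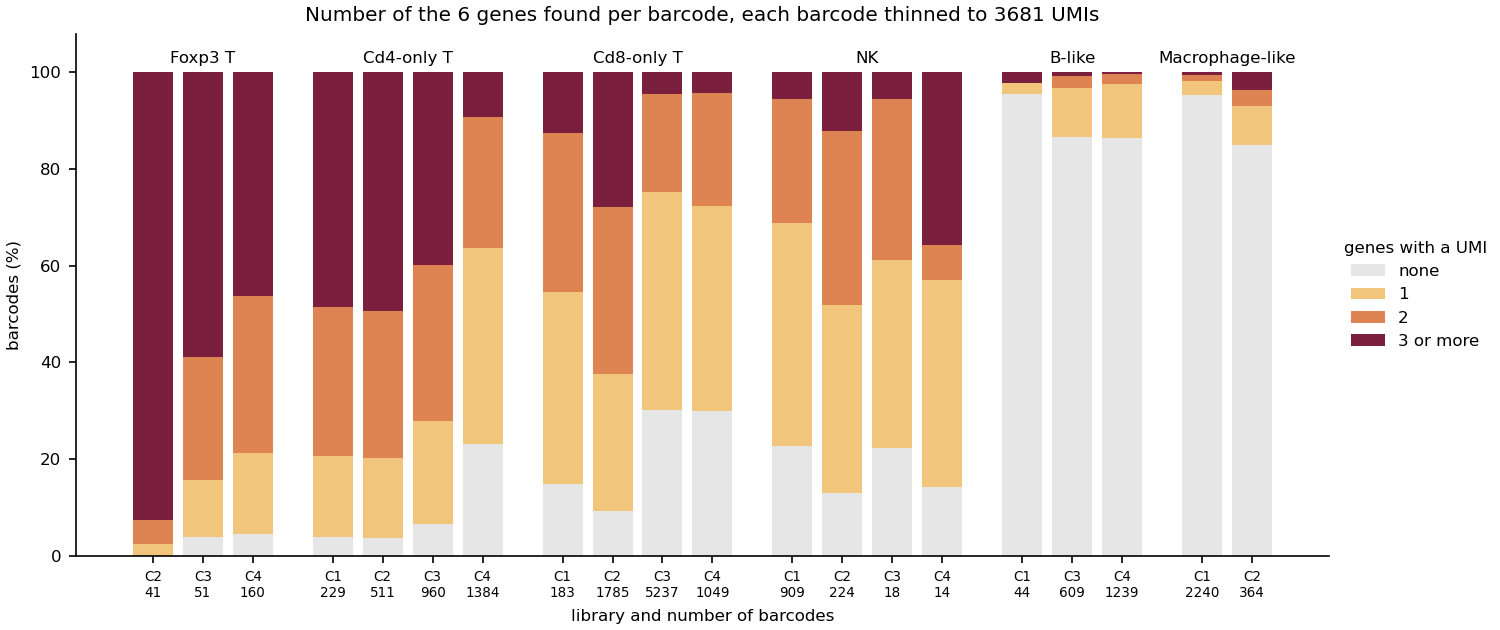
The x axis gives class and library with the number of barcodes deep enough, the y axis the percent of barcodes, and the stacked colours the number of the 6 genes with a UMI after thinning to 3681 UMIs. At least 3 genes are found in 92.7% of Foxp3 T barcodes of C2, 4.53% of Cd8-only T barcodes of C3 and 0.242% of B-like barcodes of C4.

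At that depth the share of Foxp3 T barcodes with at least 3 of the 6 genes was 92.7% (80.1 to 98.5%) for C2, 58.8% (44.2 to 72.4%) for C3 and 46.2% (38.3 to 54.3%) for C4. In Cd4-only T barcodes the share was 48.5% (41.8 to 55.1%) for C1, 49.3% (44.9 to 53.7%) for C2, 39.9% (36.8 to 43.1%) for C3 and 9.25% (7.77 to 10.9%) for C4. In Cd8-only T barcodes it was 12.6% for C1, 28.0% for C2, 4.53% for C3 and 4.19% for C4. C4 thus had the lowest share of the 4 libraries in the Cd4-only class and C2 the highest in the Cd8-only class. None of the 6 was found in 95.3% of macrophage-like barcodes for C1 and 84.9% for C2. In some pairs 1 gene was found more often beside the other. The pairs given are examples from 1 class of 1 library each, and the other pairs are not described. The part of unlike clusters within a class in these shares was not tested. Among Cd4-only T barcodes of C4, Tnfrsf9 was found in 23.0% (14.0 to 34.2%) of the 74 with Tnfrsf4 and in 1.60% (0.995 to 2.44%) of the 1310 without it. Among those of C3, Tnfrsf4 was found in 44.9% (40.5 to 49.4%) of barcodes with Icos and in 21.8% (18.1 to 25.8%) of those without. In Foxp3 T barcodes of C3 the pair of Tnfrsf4 and Cd27 ran the other way, with Cd27 in 25% (10.7 to 44.9%) of those with Tnfrsf4 and 60.9% (38.5 to 80.3%) of those without, intervals that overlap.

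The ligands were measured in the same libraries. Icosl, which encodes the ligand of ICOS, stood at 88.2 (81.0 to 95.8) for C3 and 126 (119 to 133) for C4 in B-like barcodes. In macrophage-like barcodes Icosl stood at 119 (114 to 124) for C1 and 66.1 (58.7 to 74.2) for C2. Cd86, which encodes a ligand of CD28, stood at 475 (465 to 485) for C1 and 478 (457 to 499) for C2 in macrophage-like barcodes and at 81.2 (74.4 to 88.6) for C3 and 73.0 (67.7 to 78.6) for C4 in B-like barcodes. Icosl and Cd86 were thus found in myeloid and B-like classes, with the 3 T cell classes at 26.0 CPM of Cd86 or less and 7.89 of Icosl or less. Icosl was not confined to those classes. It stood at 53.8 (29.4 to 90.3) in the 44 innate lymphoid-like barcodes of C1 and at 17.6 in NK barcodes of C1 and of C2. Cd80, which encodes the other ligand of CD28, stood at 39.3 (28.9 to 52.2) for C1, 38.4 (29.0 to 49.9) for C2, 19.5 (13.2 to 27.9) for C3 and 17.9 (8.18 to 34.0) for C4 in monocyte-like barcodes, a class that also holds dendritic-like barcodes, as described next.

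With each library clustered alone, 61 barcodes of C1, 150 of C2 and 16 of C4 were dendritic-like, the type known to present antigen to T cells. Of these, 48, 134 and 16 lay in the monocyte-like class, which held 247, 222 and 51 barcodes. They carried 66.0% of its Cd80 UMIs for C1 and 66.1% for C2. For C4 they carried 72.9% of its Icosl UMIs and held 349 (260 to 458) CPM of Icosl. The other monocyte-like barcodes held 23.8 (13.6 to 38.7) CPM of Cd80 for C1 and 23.5 (14.2 to 36.7) for C2.

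Tnfsf9, which encodes the ligand of 4-1BB, stood at 243 (216 to 273) for C1, 109 (92.7 to 127) for C2, 30.6 (22.5 to 40.7) for C3 and 13.9 (5.59 to 28.7) for C4 in monocyte-like barcodes. The dendritic-like barcodes among them carried 269 of the 291 UMIs for C1 and 121 of 159 for C2, and the others held 32.7 (20.5 to 49.6) CPM for C1 and 47.0 for C2. A Tnfsf9 UMI was found in 13.8% of the class for C1. Most of the Tnfsf9 of this class thus lay in dendritic-like barcodes in both libraries. In Cd4-only T barcodes it stood at 26.6 (18.7 to 36.6) for C1, 9.13 (6.24 to 12.9) for C2, 10.1 (7.97 to 12.5) for C3 and 1.07 (0.514 to 1.97) for C4, where C1 was also the highest library. Cd70, which encodes the ligand of CD27, stood at 21.3 (14.4 to 30.2) in the monocyte-like class of C2 and at 11.1 (7.91 to 15.2) in Cd4-only T barcodes of that library. All 31 of those monocyte-like UMIs lay in dendritic-like barcodes, which held 42.6 (28.9 to 60.5) CPM when that library was clustered alone, and they came from 3 barcodes of the class. Tnfsf4, which encodes the ligand of OX40, stood at 9.36 (7.79 to 11.2) in Cd8-only T barcodes of C2 and 8.04 (6.19 to 10.3) in Cd4-only T barcodes of C3. No class of any library held more than 3 UMIs of Tnfsf18, which encodes the ligand of GITR, so this ligand was not measurable at this depth.

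**Figure D5:**
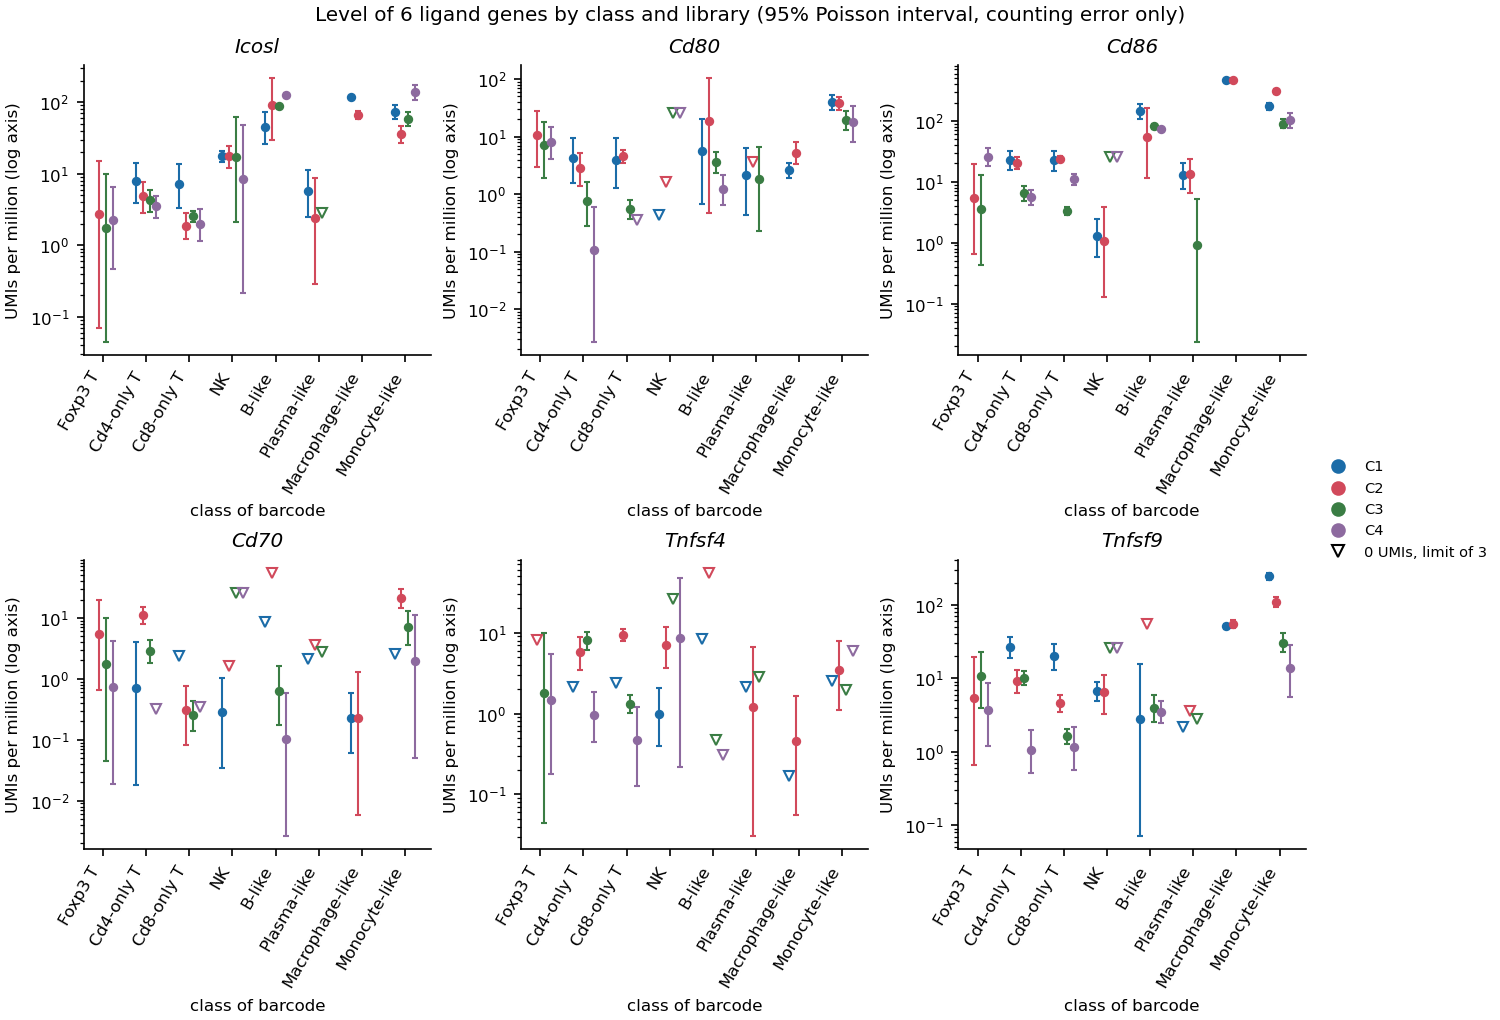
Each panel plots 1 ligand gene; the x axis gives the class and the log y axis UMIs per 1000000, with colours for C1 to C4, bars for 95% Poisson intervals and open triangles for the limit that 0 UMIs allow. Cd86 reaches 475 and 478 in macrophage-like barcodes and Tnfsf9 243 in the monocyte-like class of C1. Icosl reaches 139 in the monocyte-like class and 126 in B-like barcodes of C4. Cd70 and Tnfsf4 stay at or below 21.3 in every class drawn with more than 10 UMIs. Dendritic-like barcodes are drawn within the monocyte-like class, not apart.

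Related genes were compared between Foxp3 T and Cd4-only T barcodes at the same 2-fold mark. Ctla4, whose product competes with CD28 for its ligands, stood at 1468 CPM against 628 for C2, 737 against 299 for C3 and 571 against 63.6 for C4. Its ratio was 2.34 (2.13 to 2.57) for C2, 2.46 (2.21 to 2.73) for C3 and 8.97 (8.05 to 10.0) for C4. The ratio of Pdcd1 was 0.810 (0.667 to 0.975) for C2, 0.537 (0.365 to 0.765) for C3 and 3.77 (2.62 to 5.38) for C4, and that of Btla, which encodes an inhibitory receptor of lymphocytes, 0.618 (0.195 to 1.51) for C2, 0.583 (0.336 to 0.945) for C3 and 1.41 (1.02 to 1.92) for C4. Of these 3 inhibitory relatives, Ctla4 alone was at least 2-fold higher in C2, C3 and C4.

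Next came 8 other costimulatory genes, which encode receptors except for Cd40lg, which encodes a ligand. Of these, 3 were at least 2-fold higher in Foxp3 T barcodes of each of C2, C3 and C4, and 2, 3 and 1 at least 2-fold lower, with median log2 ratios of 0.49, -0.02 and 0.58. Over all genes tested, 9.45%, 7.93% and 10.6% were higher and 6.85%, 5.83% and 4.30% lower, with medians of 0.06, 0.04 and 0.14. The higher ones were the same 3 genes. Slamf1, which encodes a receptor that binds itself on other lymphocytes, had ratios of 2.14 (1.5 to 2.97) for C2, 2.68 (1.60 to 4.31) for C3 and 3.51 (2.66 to 4.62) for C4. Tnfrsf8, which encodes CD30, had ratios of 12.7 (3.86 to 44.4) for C2, 4.39 (1.93 to 9.16) for C3 and 11.1 (3.20 to 43.1) for C4, from levels of 21.7, 17.7 and 5.95 CPM in Foxp3 T. Those levels rest on 8 UMIs for C2, 10 for C3 and 8 for C4. The 10 UMIs of C3 came from 2 of 76 barcodes, which the interval does not take into account. Tnfrsf1b, which encodes TNF receptor 2, had ratios of 2.77 (2.32 to 3.29) for C2, 4.36 (3.32 to 5.67) for C3 and 7.03 (5.61 to 8.80) for C4. Cd40lg, whose product helps B cells, was lower in each library, at 10.9 against 189 for C2, 58.3 against 174 for C3 and 51.3 against 133 for C4. The other lower genes, named after their values were seen, were Tnfrsf14 for C2 and C3 and Cd226 for C3. The Tnfrsf14 ratio was 0.414 (0.0486 to 1.58) for C2 and 0.469 (0.126 to 1.23) for C3, intervals that include 1. The Cd226 ratio was 0.253 (0.108 to 0.502) for C3, beside 1.25 for C2 and 1.18 for C4.

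Genes that act below the receptors were compared in the same way. Of 9 that act below CD28 and ICOS, none was at least 2-fold higher in Foxp3 T for C2, C3 or C4, beside 9.45%, 7.93% and 10.6% of all genes tested. Malt1, which encodes a protease, had ratios of 1.31 for C2, 0.970 for C3 and 1.24 for C4, and Bcl10, which encodes an adaptor, 1.01 for C2, 0.811 for C3 and 1.12 for C4. Pik3r1, which encodes a regulatory subunit of phosphoinositide 3-kinase, had ratios of 0.871 for C2, 1.14 for C3 and 1.12 for C4. Of 10 that act below the TNF receptor members, 1, 0 and 1 were at least 2-fold higher and 0, 1 and 0 at least 2-fold lower, with median log2 ratios of 0.61, 0.39 and 0.24. That is near the share of all genes tested, 9.45%, 7.93% and 10.6% higher and 6.85%, 5.83% and 4.30% lower, whose medians were 0.06, 0.04 and 0.14, so the counts show nothing particular to these genes. Traf1, which encodes an adaptor that binds 4-1BB, had ratios of 1.92 (1.57 to 2.33) for C2, 1.55 (1.27 to 1.87) for C3 and 2.13 (1.84 to 2.46) for C4, and Birc3, named after its values were seen, was the higher gene of C2. Nfkb2 and Nfkb1, which encode NF-kB subunits, had ratios of 1.75 for C2, 1.60 for C3 and 1.96 for C4 and of 1.98 for C2, 0.953 for C3 and 1.65 for C4. Map3k14, which encodes the NF-kB inducing kinase, was the lower gene of C3, with ratios of 0.643 (0.203 to 1.57) for C2, 0.437 (0.140 to 1.04) for C3 and 0.618 (0.380 to 0.957) for C4. Its Foxp3 T level of C3 rests on 5 UMIs, and the intervals of C2 and C3 include 1.

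Likeness of pattern was taken as Pearson's r of log2(CPM + 1) over the 15 pairs of class and library with a level, among 9378 genes with a mean of at least 5 CPM. Pairs from 1 library share its free RNA and depth, so r is a description. The genes most like Icos were Smpdl3a (0.96), Arhgap31 (0.95) and Rora (0.95). Those most like Cd28 were Cklf (0.95), Selenow (0.93) and Lime1 (0.93), and those most like Cd27 Mgst2 (0.90), L3mbtl3 (0.84) and Mcm2 (0.81). For Tnfrsf4 they were Ccr4 (0.97), Spock2 (0.97) and Tiam1 (0.96), for Tnfrsf9 Myo1e (0.89), Manf (0.86) and Arhgef5 (0.86) and for Tnfrsf18 Rhof (0.95), Nfkb2 (0.92) and Gata3 (0.90). Ccr4, which encodes a chemokine receptor, stood at 29.9 for C2, 37.1 for C3 and 20.8 for C4 in Foxp3 T barcodes and at 28.7 for C1, 13.1 for C2, 24.3 for C3 and 5.03 for C4 in Cd4-only T barcodes, and like Tnfrsf4 it was low in the Cd8-only class, at 0.350 to 0.801. Myo1e, which encodes a class I myosin, stood at 182 for C1 and 114 for C2 in NK barcodes and at 86.9 in Foxp3 T barcodes of C2, where Tnfrsf9 was also high. Among the 6 genes themselves r was 0.91 for Icos with Cd28 and 0.89 with Tnfrsf4, whereas Tnfrsf9 gave 0.68 with Tnfrsf18 and 0.07 with Icos.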

How the data were processed

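Per the file headers the deposited matrices hold whole-number UMI counts per gene and barcode, not normalized, written by Cell Ranger 4; the authors ran Cell Ranger 6.1.2 with STAR 2.7.10a on mm10 per the submitters' processing notes. The labels' protocols name BD Rhapsody and the design text 10x. Barcodes were kept at 500 UMIs, 300 genes and 10% mitochondrial UMIs, and the 4 libraries were clustered together (2000 variable genes without the 6 members, 30 components, 15 neighbours, Leiden at resolution 1; scanpy 1.11.5, leidenalg 0.10.2, Python 3.11.15). Clusters were named from marker lists: at least 3 markers, each in 10% of barcodes. This naming rule was set after clusters had been seen. Scrublet marked 2.96%, 0%, 0.0234% and 1.95% of barcodes as doublets, a failure for C2 and C3, so no barcode was removed; without the top 5% of scores no count changed by over 1.5 times.

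UMIs were summed per class and library (at least 10 barcodes) and given per 1000000, with exact Poisson intervals for levels, exact Clopper-Pearson intervals for shares and a binomial split for ratios; intervals and limits cover counting error only. A class at 0 UMIs was given 3 for a bound. Genes with at least 10 UMIs over both classes were counted at 2-fold. No replicate exists, so no test was made. The genes named are the 6 members, their ligands, Ctla4, Pdcd1 and Btla, the 3 highest and 1 lowest of each related list by median ratio, and the 3 most alike genes per member; 1 gene of the Cd28 and Icos signalling list is not reported here. The members, lists and divisions were chosen with earlier results of these data known. Ratios and intervals were tested on simulated data.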

Additional observations from a re-analysis of the deposited data

How the results depend on the processing

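Levels, ratios and counts were recomputed with at least 1000 UMIs or at most 5% mitochondrial UMIs per barcode, without the top 5% of doublet scores, with classes from marker UMIs per barcode, with each library clustered alone, with at least 2 Foxp3 UMIs, with Cd3-bearing NK-like barcodes kept, with means over barcodes and with a fold of 1.5. A stricter cluster naming and leaving out barcodes found in more than 1 library were chosen after seeing the data. Of 198 recomputed counts, 187 stayed within 1.5 times. Genes higher in Cd4-only than in Cd8-only T barcodes of C4 went from 1 to 2 with marker UMIs per barcode, with means over barcodes and with strict naming, and to 3 at a fold of 1.5; in C1 they went from 2 to 4 at that fold, and in C3 from 5 to 3 with strict naming. Genes higher in NK barcodes at a fold of 1.5 went from 1 to 2 in C1 and from 0 to 1 in C2, and in C3 from 2 to 1 with strict naming. Genes higher in Cd8-only barcodes with Pdcd1 at a fold of 1.5 went from 0 to 1 in C1 and from 3 to 5 in C3. The ratio of Tnfrsf9 in C3, Cd4-only over Cd8-only, turned to 0.836 with strict naming, which leaves fewer Cd8-only clusters. Of 90 levels, 6 moved by over 1.5 times with each library clustered alone, up to 6.49 times for Tnfrsf9 in the Foxp3 T barcodes of C2, 3 with Cd3-bearing barcodes kept, 3 with strict naming and 1 with means over barcodes. Shares without thinning left the thinned interval in 59 of 90 cases. The 19 and 21 NK barcodes of C3 and C4 and the 8 Foxp3 T barcodes of C1 limit those values. No paired analysis was possible because no library was tied to a group.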

Other observations

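Classes outside the comparisons held some of the 6 genes. The 44 innate lymphoid-like barcodes of C1 held 408 (334 to 493) CPM of Tnfrsf18 and 296 (234 to 370) of Icos, beside 8.46 and 16.4 in macrophage-like barcodes of that library. They held 57.7 (32.3 to 95.1) CPM of Cd27 and 1 UMI each of Cd28, Tnfrsf4 and Tnfrsf9. Plasma-like barcodes, with median depths of 34496, 38453 and 29707 UMIs for C1, C2 and C3, had Cd28 levels of 55.1 (43.5 to 68.9) for C1, 61.5 (45.8 to 80.8) for C2 and 67.0 (52.4 to 84.3) for C3. That was above the 10.1 and 25.8 of macrophage-like barcodes for C1 and C2 and the 14.2 of B-like barcodes for C3. Free RNA held 7.45 for C1, 43.2 (38.8 to 48.0) for C2 and 45.3 (24.7 to 75.9) for C3. The intervals of C2 and C3 overlapped those of plasma-like barcodes. Their Cd27 levels were 0.716 for C1, 10.8 for C2 and 0.930 for C3.

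NK-like barcodes that held a Cd3 UMI, 433 for C1 and 139 for C2, had Tnfrsf9 levels of 220 (204 to 236) for C1 and 269 (241 to 299) for C2 and Tnfrsf18 levels of 157 (144 to 171) for C1 and 165 (144 to 189) for C2. Their Icos levels were 23.4 (18.5 to 29.1) for C1 and 53.0 (41.2 to 67.2) for C2, beside 9.58 and 12.3 in NK barcodes without a Cd3 UMI. Cluster 26, with 39 barcodes of C4 and led by Abi3bp, 5830411N06Rik and Trdv5, held 212 (157 to 280) CPM of Icos, 13 of Cd28, 25.9 of Cd27, 4.32 of Tnfrsf4 and no Tnfrsf9 UMI.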
